A study of Mus musculus with 6 samples.

Results

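The 42 genes described here encode receptors and co-receptors of WNT proteins, R-spondins and their receptors, core planar polarity proteins, the intracellular machinery that carries the signal, and genes that are switched on by it and restrain it. They were chosen by symbol for their roles in the pathway, and all 42 were found among 55471 gene identifiers in the count tables. WNT ligands and secreted antagonists are not part of the set. The RNA came from epiblast stem cells of the mouse, which resemble the epiblast of the embryo around gastrulation, after 2 days of differentiation in serum as embryoid bodies. The 3 libraries labelled Mixl1 KO came from cells in which the gene of the primitive streak homeobox factor MIXL1 is labelled as knocked out. The 3 libraries labelled Mixl1 induced came from a line with inducible Mixl1 exposed to 1 µg/mL doxycycline during the last 24 h. Before aggregation, all lines grew on a layer of irradiated fibroblasts from mouse embryos, in medium holding 10 ng/mL bFGF plus 20 ng/mL Activin A. The treatment text is the same for all 6 libraries and speaks of inducible lines, so it is not clear whether KO cells received doxycycline. The labels also do not say how the line was built, how many clones were used or whether both lines share a parent, so line, drug and Mixl1 cannot be told apart. Nor do they say whether the triplicates were separate cultures. The p-values weigh the group difference against the spread among these libraries, and that spread may be only technical.

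In the canonical WNT pathway, a WNT ligand binds a Frizzled receptor and an LRP5 or LRP6 co-receptor, Dishevelled is recruited, and the complex of AXIN, APC and GSK3 that marks β-catenin for breakdown is held back. β-catenin then enters the nucleus and works with TCF and LEF factors on target genes. Several of those targets act against the pathway: AXIN2 rebuilds the breakdown complex, NKD1 and NKD2 bind Dishevelled, and the membrane ubiquitin ligases RNF43 and ZNRF3 remove Frizzled from the surface, an activity that R-spondins block through LGR receptors. In the gastrulating embryo this pathway is needed for the primitive streak and for the growth of the posterior body, while ROR, RYK and VANGL proteins serve planar polarity and cell movement.

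Promoter letters are shown for 3 members that stand at different points of the pattern below: the target gene Sp5, which was lower in the induced libraries, the nuclear factor gene Lef1, which was lower as well, and the receptor gene Fzd7, which was higher. The sequences are RefSeq's for GRCm38.p6, the plus strand read 5′ to 3′, and hold the 250 bases before an annotated start. Capitals mark CTTTGA or CTTTGT, or their reverse complements, the core letters of sites that TCF and LEF factors are known to bind. For Lef1 the start inside the gene is shown (the last of its 4 RefSeq windows), since the other 3 windows held no match. None of the 3 stretches overlaps an exon of GENCODE M21.
Sp5 chr2:70474673-70474922: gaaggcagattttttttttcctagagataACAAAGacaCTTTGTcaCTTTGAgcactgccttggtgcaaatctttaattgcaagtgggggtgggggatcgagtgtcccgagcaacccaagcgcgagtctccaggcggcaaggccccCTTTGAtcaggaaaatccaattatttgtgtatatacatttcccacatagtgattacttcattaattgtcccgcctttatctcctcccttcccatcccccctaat
Lef1 chr3:131156044-131156293: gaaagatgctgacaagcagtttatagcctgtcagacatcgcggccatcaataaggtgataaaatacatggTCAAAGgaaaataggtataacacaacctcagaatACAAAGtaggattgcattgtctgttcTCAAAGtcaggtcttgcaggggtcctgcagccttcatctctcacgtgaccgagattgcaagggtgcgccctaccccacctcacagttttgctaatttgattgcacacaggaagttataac
Fzd7 chr1:59481897-59482146: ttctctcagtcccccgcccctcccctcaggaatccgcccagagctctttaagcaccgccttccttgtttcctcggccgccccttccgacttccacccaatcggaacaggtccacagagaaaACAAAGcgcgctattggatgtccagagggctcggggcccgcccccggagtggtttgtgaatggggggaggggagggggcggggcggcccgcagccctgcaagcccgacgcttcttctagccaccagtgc

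Sp5 had matches beginning 221, 212, 204 and 104 bases before the start, with the fifth in the 50 bases after it. Lef1 had matches 180, 146 and 120 bases before the internal start, and Fzd7 had 1 match 129 bases before its start. Windows of 300 bases (250 before to 50 after a start) were searched on both strands for these letters, which cannot match at the same position. Of 32851 RefSeq windows, 31.2% held at least 1 match, and 0.0365% (12 windows, the Sp5 window among them) held 5 or more. Windows of 29 of the 42 members were searched; those of Fzd2, Fzd3, Fzd6, Fzd8, Lrp5, Lrp6, Lgr5, Rspo2, Rspo3, Vangl1, Axin1, Apc and Znrf3 were not analysed here. Of the 38 windows of these 29 members, 10 held a match, or 26.3%, a share near that of all windows. The windows with a match belonged to Fzd1, Fzd7, Ror1, Ror2, Gsk3b, Lef1, Tcf7l1, Tcf7l2, Sp5 and Sp8, genes that were higher, lower or not called below. The palindrome TAAT and ATTA with 3 bases between them, which paired homeobox factors such as MIXL1 are known to bind, was in 0.487% of all windows and in 0 of the 38.

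Depth and labels were checked first. Gene counts summed to between 17490426 and 21026423 reads in each library. Differences among replicates exceeded counting noise (chi-square per degree of freedom 2.16 to 4.81, against 71.9 to 82.7 between groups). Mixl1 had 39.9, 36.8 and 42.7 CPM in the KO libraries and 427, 441 and 429 CPM in the induced libraries (CPM, gene reads scaled to a common library size with TMM factors), which is 10.9-fold higher in the induced group; the altered part of the gene is not named in the labels, so reads over the whole gene do not check the knockout. Marker calls are by the edgeR test given below (adjusted p under 0.05), which called 31.0% of all 15091 tested genes higher and 31.6% lower. All 8 epiblast markers were tested, 5 being higher and 3 lower in the induced group. Their summed level was 1928 to 2131 CPM in the KO libraries and 2009 to 2158 CPM in the induced libraries. These similar sums hold opposite moves of single genes. In the means, Pou5f1 went from 1294 to 807 CPM and Nanog from 161 to 53.5 CPM. Tdgf1 went from 254 to 761 CPM and Sox2 from 51.7 to 188 CPM. Of 10 fibroblast markers, 6 were lower and 3 higher, with a summed level of 587 to 763 CPM in the KO libraries and 457 to 624 CPM in the induced libraries. All 10 macrophage markers were lower, with a summed level of 320.0 to 462 CPM in the KO libraries and 47.1 to 58.6 CPM in the induced libraries. No marker of these 3 lists was at 0 reads in any library. Definitive endoderm markers summed to 18.1 to 20.9 CPM in the KO libraries and 151 to 159.9 CPM in the induced libraries, with 6 of 8 higher and 0 lower. Of 8 nascent mesoderm markers, 5 were higher, 2 were lower and 1 was not called. Their sum was 1804 to 1904 CPM in the KO libraries and 334 to 376 CPM in the induced libraries, and most of it was T, which was lower. Of 7 neural ectoderm markers, 2 were higher, 1 was lower and 4 were not called. In the means, Irx3 went from 6.45 to 70.1 CPM, Sox1 from 10.9 to 42.4 CPM and Nes from 318 to 168 CPM. In such bulk samples, fewer cells of a type and less RNA per cell cannot be told apart, and the part of these other cell types in the results below was not tested.

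The comparison asked how the WNT-receiving machinery of the induced line differs from that of the KO line. Receptor genes were mostly higher in the induced libraries, and TCF/LEF and feedback genes were mostly lower. Of the 42 members, 41 had enough reads to be tested, and 33 were called by the quasi-likelihood test of edgeR (adjusted p under 0.05), 18 of them higher and 15 lower in the induced group. That is 80.5% of tested members, where 62.6% of all 15091 tested genes passed. These shares were not matched for read depth, on which calls also depend. Higher calls made up 43.9% of members against 31.0% of all genes, and lower calls 36.6% against 31.6%. For 31 tested members the KO and induced libraries did not overlap (75.6%), against 67.1% of all genes. A test against a 1.5-fold change called 12 members (29.3%), 8 higher and 4 lower, against 18.8% of all genes, 7.69% higher and 11.1% lower. The median log2 fold change of tested members was -0.04 and that of all genes 0.0038, while the median size of the change regardless of sign was 0.44 for members and 0.32 for all genes.

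Split by role, 14 of 18 receptor and co-receptor genes were higher, 2 were lower and 2 were not called, with a median log2 fold change of 0.43. Of 11 genes of TCF/LEF factors and feedback targets, 1 was higher, 6 were lower and 4 were not called, with a median of -0.47. The remaining 12 tested members, R-spondins, planar polarity, Dishevelled and breakdown complex genes, had 3 higher, 7 lower and a median of -0.17. These splits follow roles in the pathway; earlier results of these data were known when they were drawn up, and they carry no test.

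**Figure D1:**
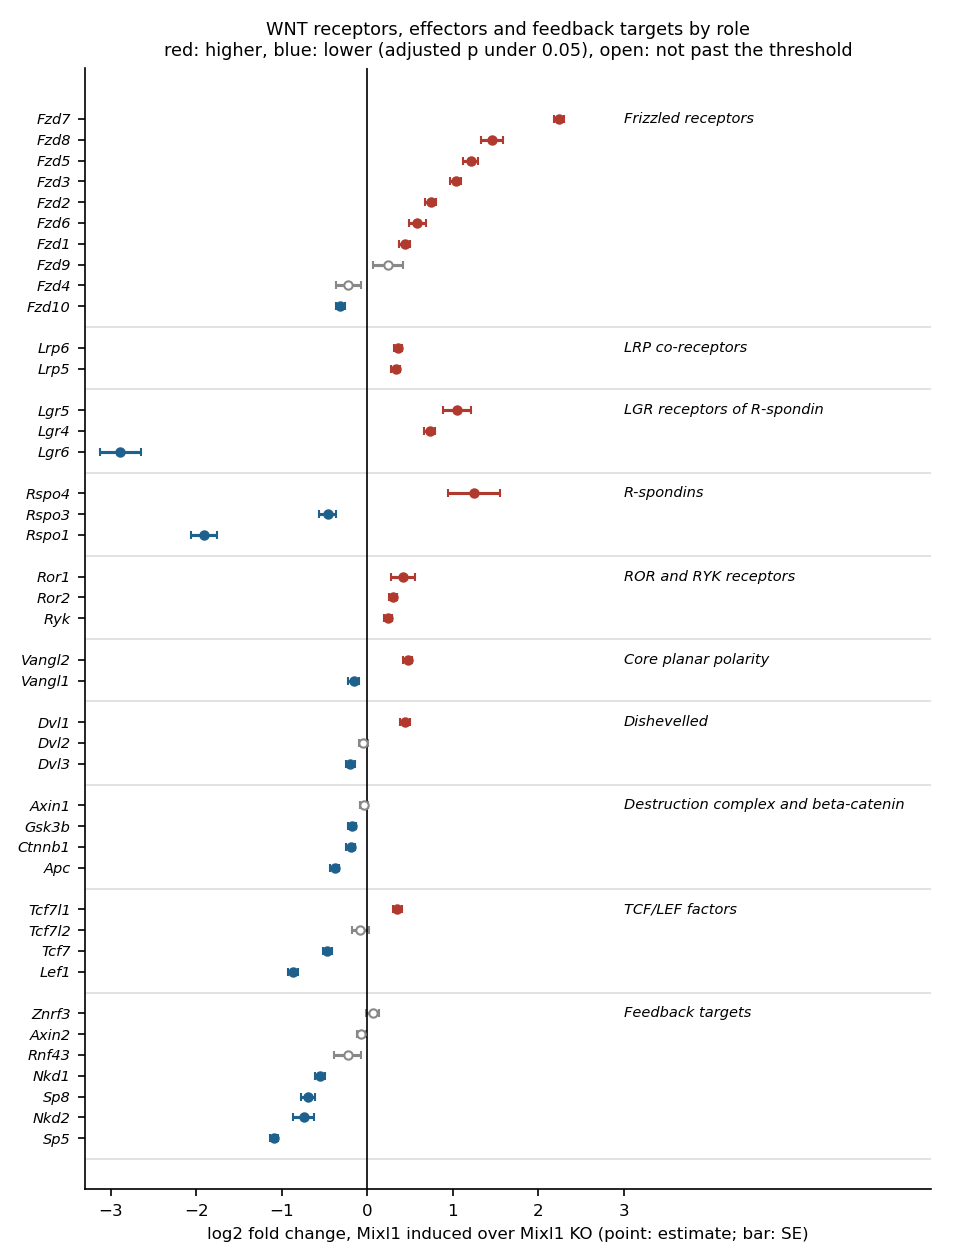
Log2 fold change (x axis, induced over KO, bars are the SE) of each of the 41 tested members, grouped by role. Points to the right of the line are higher in the induced group, and 7 of 10 Frizzled genes lie there past the threshold. Of 7 feedback targets, 4 lie to the left past the threshold. The other 3 are open points (Rnf43 at -0.23, Axin2 at -0.07 and Znrf3 at 0.07).

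Frizzled genes encode the seven-pass receptors that bind WNT ligands. Of 10, 7 were higher in the induced libraries, 1 was lower and 2 were not called, and their median log2 fold change was 0.66. Fzd7, a receptor of early embryonic and pluripotent cells, had 48.98, 48.99 and 51.3 CPM in the KO libraries and 234, 256 and 216 CPM in the induced libraries. Every induced library lay more than 4 times above every KO library. Fzd7 (ENSMUSG00000041075.8, mm10 chr1:59482424-59486955, plus strand) thus rose 4.73-fold (log2 fold change 2.24, SE 0.059, edgeR adjusted p = 3.44e-18), the largest rise among the 42 members.

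Fzd5 and Fzd8, close relatives of each other that both couple to β-catenin signalling, were at lower levels and rose too. Fzd5 had 11.7, 10.7 and 10.2 CPM in the KO libraries and 26.6, 24.9 and 24.1 CPM in the induced libraries, and rose 2.32-fold (log2 fold change 1.21, SE 0.088, edgeR adjusted p = 6.65e-11). Fzd8 had 5.12, 5.24 and 7.11 CPM in the KO libraries and 17.6, 15.2 and 15.1 CPM in the induced libraries, and rose 2.75-fold (log2 fold change 1.46, SE 0.12, edgeR adjusted p = 1.09e-09). Neither gene's groups overlapped. Fzd8 lies on chromosome 18, where the median log2 fold change of 416 tested genes was -0.16, so the gene moved against its chromosome.

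Fzd3, a receptor used in planar polarity and axon guidance, had 35.95, 35.05 and 38.4 CPM in the KO libraries and 76.2, 77.8 and 70.1 CPM in the induced libraries (log2 fold change 1.03, SE 0.06, edgeR adjusted p = 1.39e-12). Fzd2 had 65.8, 61.9 and 58.7 CPM in the KO libraries and 109, 109 and 93.5 CPM in the induced libraries (log2 fold change 0.74, SE 0.062, edgeR adjusted p = 1.80e-09). In both genes the lowest induced library was above the highest KO library. Fzd6, another planar polarity receptor, had 16.8, 14.2 and 12.1 CPM in the KO libraries and 22.4, 21.4 and 20.97 CPM in the induced libraries (log2 fold change 0.59, SE 0.1, edgeR adjusted p = 2.80e-05). It lies on chromosome 15, whose 596 tested genes had a median log2 fold change of -0.33, again opposite to the gene. Fzd1 had the smallest called rise of the family, between 26.5 and 35.8 CPM in the means, or 0.44 (SE 0.068) on the log2 scale.

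Fzd10 was the most abundant Frizzled transcript per length in both groups and the only one called lower. It had 257, 265 and 286 CPM in the KO libraries and 219, 225 and 206 CPM in the induced libraries, a 1.24-fold difference (log2 fold change -0.31, SE 0.05, edgeR adjusted p = 9.56e-06). All 3 induced libraries were below all 3 KO libraries. Fzd4 (6.21 to 5.30 CPM, log2 fold change -0.22) and Fzd9 (2.98 to 3.52 CPM, log2 fold change 0.24) were among the scarcest of the family and did not pass (edgeR adjusted p = 0.199 and 0.236); their groups overlapped.

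Levels per length, in RPKM (CPM divided by the exon length in kilobases), show how the make-up of the family differed. The 10 genes summed to 128 ± 3.88 RPKM in the KO group and 174 ± 10.5 RPKM in the induced group (SD, n = 3). Without Fzd7, left out after its value was seen, the other 9 summed to 117 ± 3.59 and 122 ± 6.50 RPKM. Of the family sum, Fzd7 made up 8.64, 8.59 and 8.56% in the KO libraries and 29.04, 30.9 and 29.3% in the induced libraries. Fzd10 made up 63.1, 64.7 and 66.7% in the KO libraries and 37.9, 37.9 and 38.9% in the induced libraries. The KO libraries were thus dominated by Fzd10, with Fzd2 next at 13.3% ± 1.11, while in the induced libraries Fzd10 and Fzd7 together held the larger part and Fzd2 held 16.3% ± 0.533 (SD, n = 3). With 3 libraries a group, an exact permutation test of a share cannot give a p below 0.1, so shares are given as descriptions.

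**Figure D2:**
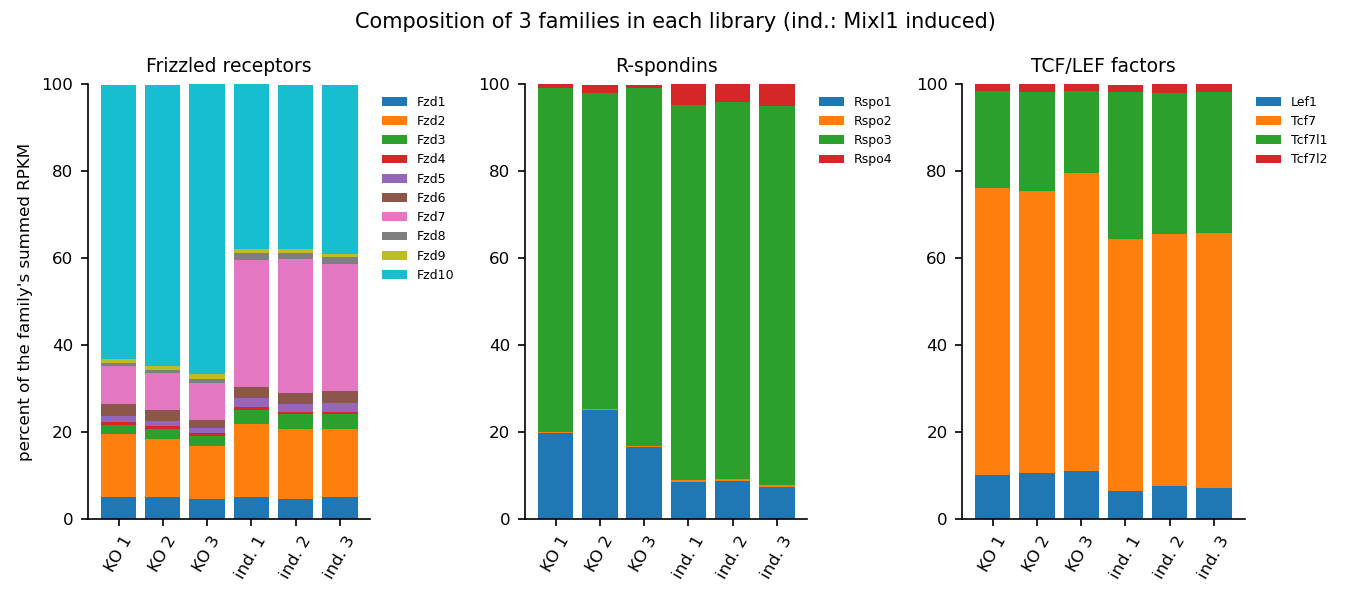
Share of each family's summed RPKM (y axis, percent) held by each member in each of the 6 libraries (x axis), for Frizzled receptors, R-spondins and TCF/LEF factors. The Fzd7 band widens from about 8.60% to 29.8% and the Fzd10 band narrows from 64.8% to 38.2%; the Rspo1 and Lef1 bands are narrower in all 3 induced libraries.

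LRP5 and LRP6 are the single-pass co-receptors that join Frizzled in the canonical pathway. Both genes were modestly higher in the induced group. Lrp5 had 131, 134 and 138 CPM in the KO libraries and 181, 169.8 and 157 CPM in the induced libraries (log2 fold change 0.33, SE 0.052, edgeR adjusted p = 7.59e-06). Lrp6 had 83.7, 82.3 and 82.2 CPM in the KO libraries and 111, 108 and 99.7 CPM in the induced libraries (log2 fold change 0.36, SE 0.051, edgeR adjusted p = 2.18e-06). Neither gene's groups overlapped, and their proportions stayed close: Lrp5 held 69.5% ± 0.731 of the summed RPKM in the KO group and 69.1% ± 0.550 in the induced group (SD, n = 3).

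The LGR genes, whose products bind R-spondins, went in different directions. Lgr4, the most abundant of the 3 per length, had 40.8, 48.2 and 45.4 CPM in the KO libraries and 78.6, 71.4 and 72.4 CPM in the induced libraries and rose 1.66-fold (log2 fold change 0.73, SE 0.063, edgeR adjusted p = 1.25e-09). Lgr5, a stem cell marker and WNT target in several adult tissues, had 5.02, 3.69 and 3.0003 CPM in the KO libraries and 9.11, 7.83 and 7.43 CPM in the induced libraries and rose 2.07-fold (log2 fold change 1.05, SE 0.16, edgeR adjusted p = 8.28e-06). Lgr6 had 4.73, 5.24 and 4.74 CPM in the KO libraries and 0.482, 0.971 and 0.546 CPM in the induced libraries, a 7.40-fold fall (log2 fold change -2.89, SE 0.24, edgeR adjusted p = 5.77e-10). Its induced libraries held 10, 17 and 10 reads against 97, 95 and 90 in the KO libraries, so the induced level is poorly resolved although the groups lie far apart. Lgr6 had the largest fall among the 42 members.

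R-spondins are secreted proteins that strengthen WNT signalling by shielding Frizzled from RNF43 and ZNRF3. Rspo1 had 8.68, 10.7 and 8.63 CPM in the KO libraries and 2.36, 2.80 and 2.29 CPM in the induced libraries and fell 3.76-fold (log2 fold change -1.91, SE 0.15, edgeR adjusted p = 3.93e-10). Rspo3, the most abundant of the 4 per length and a gene of the primitive streak, had 55.4, 49.3 and 67.8 CPM in the KO libraries and 38.3, 43.8 and 43.1 CPM in the induced libraries (log2 fold change -0.46, SE 0.1, edgeR adjusted p = 0.00257). Its groups did not overlap, but the KO libraries were spread, with a coefficient of variation of 16.4%. Rspo4 was scarce and higher, with 0.488, 1.05 and 0.579 CPM in the KO libraries and 1.59, 1.54 and 1.86 CPM in the induced libraries (log2 fold change 1.25, SE 0.3, edgeR adjusted p = 0.00101). Rspo2 was not tested, having 5, 4 and 2 reads in the KO libraries and 8, 6 and 8 in the induced libraries. The family sum was 23.8 ± 2.53 RPKM in the KO group and 15.6 ± 1.05 RPKM in the induced group (SD, n = 3), and the share of Rspo1 in it went from 20.6% ± 4.31 to 8.24% ± 0.759 (SD, n = 3). R-spondin genes can be expressed by fibroblasts, and 6 of 10 fibroblast markers were lower in the same libraries (median log2 fold change -0.72, with Dcn at -2.64 and Col1a1 at -0.74, but Col1a2 at 1.09); their part in these falls was not tested.

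ROR1, ROR2 and RYK bind WNT5A and related ligands outside the canonical pathway. All 3 genes were higher, by 1.18- to 1.34-fold. Ror2, the most abundant of the 3 per length, had 127, 133 and 136 CPM in the KO libraries and 164, 169.9 and 155 CPM in the induced libraries (log2 fold change 0.30, SE 0.048, edgeR adjusted p = 1.07e-05). Ryk had 71.8, 73.3 and 74.3 CPM in the KO libraries and 81.96, 89.1 and 88.7 CPM in the induced libraries (log2 fold change 0.24, SE 0.052, edgeR adjusted p = 3.13e-04). Ror1 had 18.9, 15.7 and 12.001 CPM in the KO libraries and 22.3, 21.7 and 18.3 CPM in the induced libraries, and its groups overlapped (log2 fold change 0.42, SE 0.14, edgeR adjusted p = 0.0162). The Ror1 call was lost when KO replicate 2 (adjusted p = 0.0529), induced replicate 1 (0.0607) or induced replicate 2 (0.0522) was left out.

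VANGL1 and VANGL2 are membrane proteins at the core of planar polarity. Vangl2, the more abundant per length, had 74.1, 82.2 and 77.7 CPM in the KO libraries and 108, 110.3 and 106 CPM in the induced libraries (log2 fold change 0.48, SE 0.051, edgeR adjusted p = 3.98e-08), with no overlap. Vangl1 was slightly lower, with 57.9, 58.5 and 56.1 CPM in the KO libraries and 56.8, 50.2 and 47.1 CPM in the induced libraries and overlapping groups (log2 fold change -0.16, SE 0.064, edgeR adjusted p = 0.0341). That call was lost with DESeq2 (adjusted p = 0.0662) and without KO replicate 1 (0.0504) or 2 (0.0815) or induced replicate 2 (0.124) or 3 (0.161). Of the summed RPKM of the pair, Vangl1 held 43.3, 41.01 and 41.3% in the KO libraries and 33.9, 30.8 and 30.2% in the induced libraries.

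Dishevelled proteins pass the signal from Frizzled to the cell interior, and their 3 genes shifted in proportion with little change in sum. Dvl1 had 58.8, 62.8 and 57.4 CPM in the KO libraries and 84.4, 77.6 and 80.98 CPM in the induced libraries (log2 fold change 0.44, SE 0.055, edgeR adjusted p = 3.54e-07), and Dvl3 had 108, 108 and 106 CPM in the KO libraries and 94.7, 99.6 and 86.2 CPM in the induced libraries (log2 fold change -0.20, SE 0.053, edgeR adjusted p = 0.00279). Dvl1 was higher without overlap and Dvl3 lower without overlap. Dvl2 did not pass, at 101 to 97.9 CPM (log2 fold change -0.04, SE 0.051, edgeR adjusted p = 0.462). The summed level was 44.7 ± 1.04 RPKM in the KO group and 46.3 ± 0.878 RPKM in the induced group (SD, n = 3). Dvl2 is the 1 member with many reads on the opposite strand, 18.53% of its stranded reads, which the strand-specific column keeps apart.

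Of 4 genes of the breakdown complex and β-catenin, 3 were lower by small amounts and 1 was not called. Ctnnb1, which encodes β-catenin and was the most abundant member per length, had 1069.9, 1016 and 1121 CPM in the KO libraries and 908, 911 and 981 CPM in the induced libraries (log2 fold change -0.20, SE 0.048, edgeR adjusted p = 0.00128). The 3 induced libraries were below the 3 KO libraries, by 1.15-fold in the means. Gsk3b, the kinase gene, had 112, 105 and 109 CPM in the KO libraries and 96.9, 93.999 and 96.4 CPM in the induced libraries (log2 fold change -0.18, SE 0.047, edgeR adjusted p = 0.00198), without overlap. Apc, the scaffold gene, had 183, 176 and 191 CPM in the KO libraries and 149, 141 and 133 CPM in the induced libraries (log2 fold change -0.38, SE 0.05, edgeR adjusted p = 8.07e-07). Apc lies on chromosome 18, whose median of -0.16 is in the same direction; with each gene centred on the median of its chromosome, Apc was still lower, at -0.22. Axin1, the other scaffold gene, did not pass, at 120.3 to 117 CPM (log2 fold change -0.04, SE 0.05, edgeR adjusted p = 0.521). It lies on chromosome 17, whose 753 tested genes had a median of -0.13.

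TCF and LEF factors bind the target genes. TCF7 and LEF1 mostly activate them with β-catenin, whereas TCF7L1, the main family member of early epiblast, mostly represses. The gene for LEF1, itself a WNT target, fell: Lef1 had 77.2, 80.3 and 87.96 CPM in the KO libraries and 41.2, 47.4 and 46.1 CPM in the induced libraries, a 1.82-fold difference (log2 fold change -0.87, SE 0.063, edgeR adjusted p = 8.03e-11). Tcf7, the most abundant of the 4 per length, had 152, 145 and 162 CPM in the KO libraries and 111, 108 and 114 CPM in the induced libraries (log2 fold change -0.47, SE 0.049, edgeR adjusted p = 3.12e-08). Tcf7l1 went the other way, with 76.3, 76.7 and 66.95 CPM in the KO libraries and 96.2, 90.6 and 94.3 CPM in the induced libraries (log2 fold change 0.35, SE 0.056, edgeR adjusted p = 1.09e-05). None of these 3 genes' groups overlapped. Tcf7l2 did not pass, at 11.9 to 11.3 CPM (log2 fold change -0.08, SE 0.1, edgeR adjusted p = 0.501).

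Per length, the family sum was 87.7 ± 2.23 RPKM in the KO group and 72.5 ± 1.33 RPKM in the induced group (SD, n = 3), with no overlap between groups. Of that sum, Tcf7l1 made up 22.3, 22.8 and 18.96% in the KO libraries and 33.8, 32.4 and 32.6% in the induced libraries. Tcf7 went from 66.5% ± 1.89 to 58.2% ± 0.334 (SD, n = 3) and Lef1 from 10.6% ± 0.538 to 7.05% ± 0.559 (SD, n = 3). The Lef1 difference of -3.57 percentage points was -2.21 with unstranded counts and -8.33 without division by length. The induced libraries thus held a larger proportion of Tcf7l1 and smaller proportions of Tcf7 and Lef1. Reads were counted per gene, so transcripts from different starts of a gene were not told apart, and activity of the factors was not tested.

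Feedback targets fell or did not pass. Of 7, 4 were lower, 0 were higher and 3 were not called, with a median log2 fold change of -0.55. Sp5 and Sp8 encode related zinc-finger factors that are direct WNT targets and dampen or modulate the response. Sp5 (ENSMUSG00000075304.2, mm10 chr2:70474923-70477729, plus strand) had 170.0, 166 and 154 CPM in the KO libraries and 74.97, 74.6 and 80.4 CPM in the induced libraries. Sp5 fell 2.13-fold (log2 fold change -1.09, SE 0.051, edgeR adjusted p = 3.39e-14), the largest fall of the feedback targets. Its promoter window is the one with 5 TCF/LEF letter matches, of which 4 lie in the stretch printed above. Whether these letters bear on the level of Sp5 was not tested. Sp8 had 76.4, 69.1 and 86.9 CPM in the KO libraries and 43.2, 48.6 and 51.7 CPM in the induced libraries, a 1.62-fold fall (log2 fold change -0.70, SE 0.082, edgeR adjusted p = 2.83e-06).

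Nkd1 had 71.96, 75.8 and 71.3 CPM in the KO libraries and 48.5, 48.7 and 52.04 CPM in the induced libraries (log2 fold change -0.55, SE 0.055, edgeR adjusted p = 1.21e-08). Nkd2 was scarcer, with 9.56, 8.71 and 8.37 CPM in the KO libraries and 4.72, 5.89 and 5.35 CPM in the induced libraries (log2 fold change -0.75, SE 0.13, edgeR adjusted p = 2.96e-05). In both genes, which encode inhibitors that bind Dishevelled, all induced libraries lay below all KO libraries.

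Axin2, often used as a readout of canonical WNT signalling, did not pass. It had 109, 114 and 115 CPM in the KO libraries and 98.7, 115 and 108 CPM in the induced libraries, so the groups overlapped (log2 fold change -0.07, SE 0.054, edgeR adjusted p = 0.27). Znrf3 had 25.5, 29.6 and 27.4 CPM in the KO libraries and 30.9, 28.5 and 26.7 CPM in the induced libraries (log2 fold change 0.07, SE 0.077, edgeR adjusted p = 0.477), and Rnf43 had 4.68, 5.79 and 4.68 CPM in the KO libraries and 4.44, 4.74 and 3.71 CPM in the induced libraries (log2 fold change -0.23, SE 0.16, edgeR adjusted p = 0.208). The groups overlapped for both ligase genes, which act on Frizzled. A p that misses the threshold does not show equal levels; the standard errors limit Axin2 more closely than Rnf43, which had 68 to 105 reads per library.

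**Figure D3:**
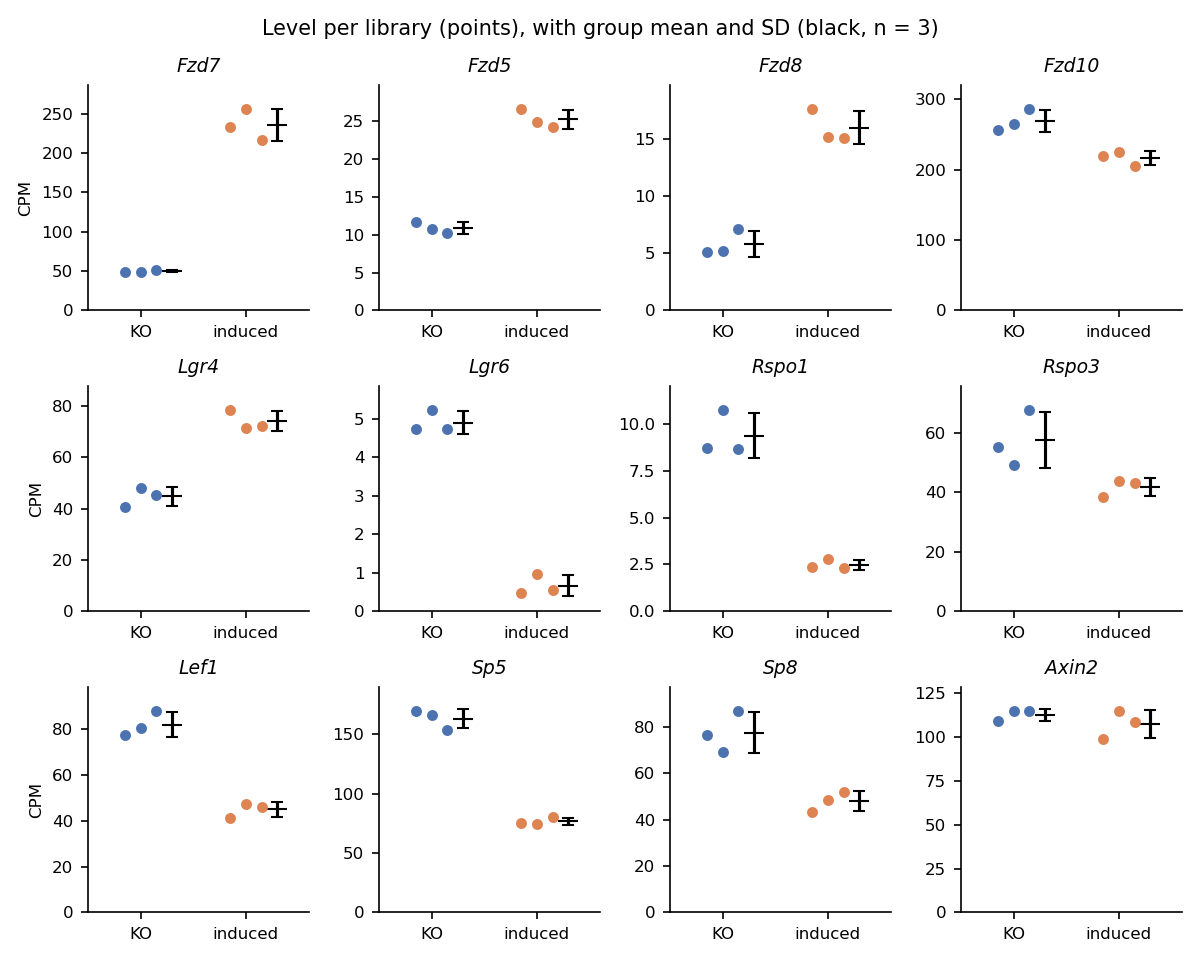
Level in CPM (y axis, from 0) of 12 members in each library (points), with the group mean and SD in black (n = 3). KO and induced points are apart for Fzd7, Fzd5, Fzd8, Fzd10, Lgr4, Lgr6, Rspo1, Rspo3, Lef1, Sp5 and Sp8, and mixed for Axin2.

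Between members, levels per length spanned from Rspo2 at 0.0371 RPKM to Ctnnb1 at 206 RPKM in the KO group, and from 0.0760 to 179.8 RPKM for the same genes in the induced group. After Ctnnb1, the KO order ran Fzd10 (82.8 ± 4.72 RPKM), Sp5 (77.8 ± 3.94) and Tcf7 (58.3 ± 3.14), the difference between Fzd10 and Sp5 being less than the sum of their SDs. In the induced group it ran Fzd10 (66.6 ± 3.06 RPKM), Fzd7 (51.96 ± 4.46), Tcf7 (42.2 ± 0.980) and Ror2 (38.4 ± 1.72; SD, n = 3 throughout), with Sp5 behind them at 36.5 ± 1.56. A receptor, Fzd7, thus stood above Sp5 per length in the induced libraries and below it in the KO libraries.

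**Figure D4:**
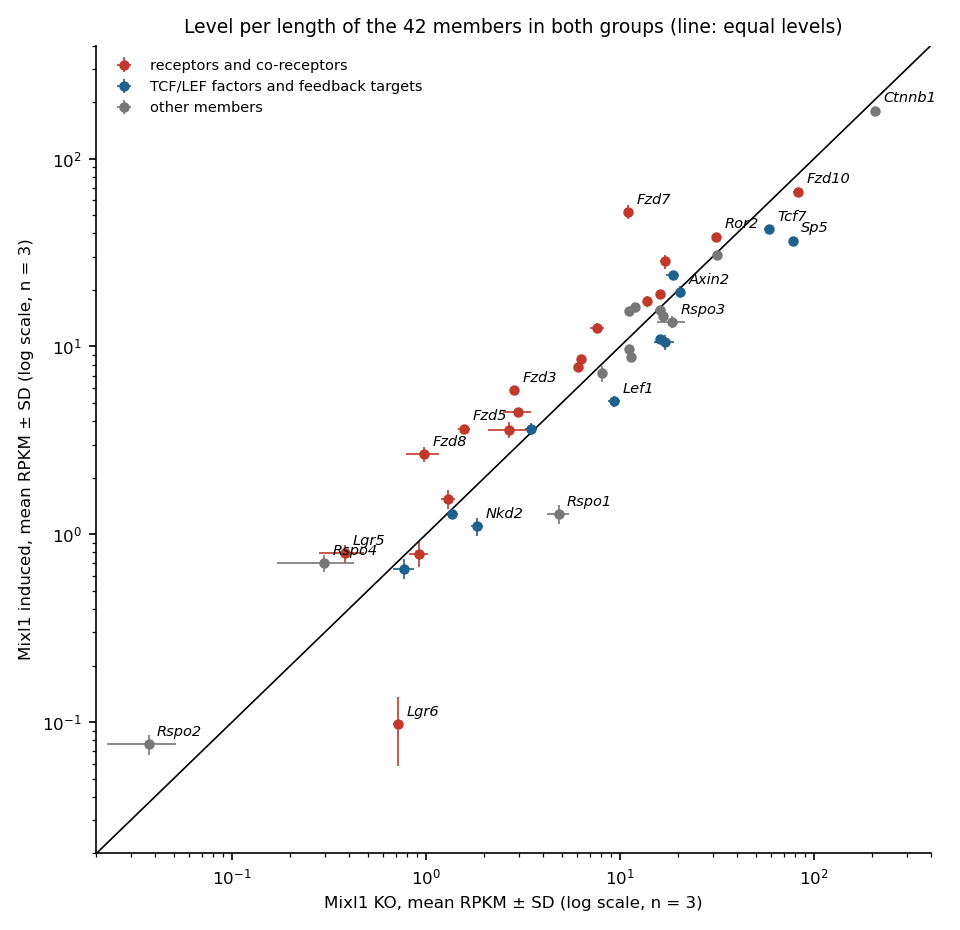
Mean RPKM of each of the 42 members in the KO group (x axis, log scale) and in the induced group (y axis, log scale), with SD (n = 3) and the line of equal levels. Receptor genes lie mostly above the line, with Fzd7 and Fzd8 far from it; Sp5, Lef1 and Nkd2 lie below it, and Lgr6 is the receptor gene farthest below.

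Replicates of a group were close for most members. For the 32 members with at least 10 CPM in both groups, the median coefficient of variation was 5.004% in the KO group and 5.012% in the induced group. In the KO group it was above 10% for Ror1 (22.2%), Fzd6 (16.5%), Rspo3 (16.4%) and Sp8 (11.5%). Ror1 and Fzd6 were highest in KO replicate 1 and lowest in KO replicate 3, whereas Rspo3 and Sp8 were highest in KO replicate 3 and lowest in KO replicate 2. In the induced group the same 4 genes had values of 10.2%, 3.47%, 7.13% and 8.999%.

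The authors' deposited table of their own DESeq2 comparison lists all 42 members. For the 41 members tested here, it gave the same call at 0.05 for 40, the exception being Vangl1 (adjusted p = 0.102 in the authors' deposited table). The largest difference in log2 fold change was that of Lef1, which is -0.80 in the authors' deposited table; with the unstranded counts the edgeR value was -0.80 as well, against -0.87 from the strand-specific counts.

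Other genes of the pathway, from lists set by role, went as follows in the same fit. Counts of these lists, here and in the closing section, stand beside 31.0% higher and 31.6% lower among all 15091 tested genes. Of 18 tested WNT ligand genes, 15 were lower and 3 higher, with a median log2 fold change of -1.51; Wnt8a went from 288 to 25.7 CPM, Wnt6 from 121 to 9.62 CPM and Wnt3 from 99.8 to 52.8 CPM, while Wnt2 rose from 0.119 to 8.87 CPM. The genes for ligand secretion, Wls (-0.08) and Porcn (0.08), did not pass (edgeR adjusted p = 0.142 and 0.461). Of 17 tested extracellular antagonist genes, 9 were higher and 7 lower, with Dkk1, which blocks LRP6, at 5.45 (SE 0.11) and Frzb, a soluble Frizzled relative, at 2.21 (SE 0.066), against Notum at -2.64 (SE 0.057) and Sostdc1 at -5.74 (SE 0.25) on the log2 scale. Of 17 tested posterior and streak genes that respond to WNT, 12 were lower and 3 higher (median -1.32). Wnt3a and Wnt8a stand in both this list and the ligand list, and both were lower. T, the brachyury gene, went from 1807 to 205 CPM, while Gsc rose from 1.16 to 25.2 CPM.

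Of 16 other breakdown complex and kinase genes, 7 were higher, 2 were lower and 7 were not called, where 62.6% of all tested genes were called. Their log2 fold changes lay between -0.44 and 0.57. Csnk1e, a kinase gene that acts on Dishevelled, was at -0.44 (SE 0.049). It lies on chromosome 15, whose median log2 fold change of -0.33 is in the same direction. Csnk1g1 was at 0.52 (SE 0.063), Tnks2, whose product marks AXIN for breakdown, at 0.35 (SE 0.047) and Amer1 at 0.42 (SE 0.069). Of 22 other planar polarity and noncanonical genes, 11 were higher and 8 lower. Prickle1, a cytoplasmic partner of VANGL2, fell from 153 ± 9.82 to 45.7 ± 2.15 CPM (SD, n = 3), and Ptk7, a co-receptor of planar polarity, from 1277 ± 25.5 to 764 ± 38.8 CPM (SD, n = 3). Prickle1 also lies on chromosome 15, and Ptk7 lies on chromosome 17, whose median was -0.13. Daam2 rose from 8.75 to 30.3 CPM and Gpc4, a glypican gene, from 41.7 to 99.5 CPM.

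**Figure D5:**
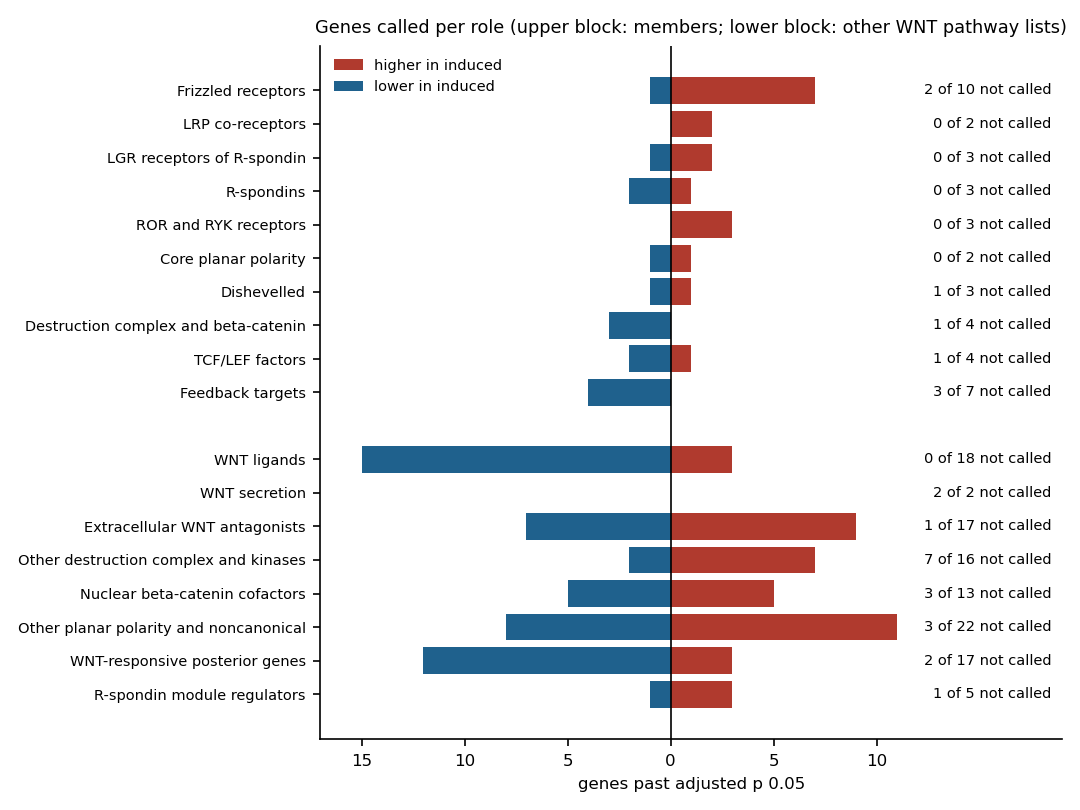
Number of genes past an adjusted p of 0.05 (x axis) that were higher (right, red) or lower (left, blue) in the induced group, per role of the members (upper block) and per list of other WNT pathway genes (lower block), with the number not called at the right. Frizzled, LRP and ROR/RYK genes extend mostly to the right. Feedback targets, WNT ligands (15 lower of 18) and posterior genes (12 lower of 17) extend mostly to the left. Wnt3a and Wnt8a count in both the ligand and the posterior list.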

How the data were processed

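The authors deposited raw read counts per gene for each library, unstranded and for each strand. The submitters' processing notes name bcl2fastq, STAR, DESeq2 and mm10; the sources used here give no versions. Libraries were stranded, per the labels' protocols, and the antisense column (96.2% to 96.3% of stranded gene reads) was used. Rows naming no gene (15.1% to 17.6% of reads, multimapped reads included) were left out, which can lower genes with near-identical copies. The authors' deposited table of their comparison holds log2 fold changes and adjusted p-values.

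Of 55471 identifiers, 55230 matched GENCODE M21 (GRCm38) for names, positions and exon lengths. Counts were tested with edgeR 4.0.16 (R 4.3.3): filterByExpr, TMM, robust quasi-likelihood fit with group as its only term, Benjamini-Hochberg adjustment over 15091 genes, threshold 0.05, two-sided. The SE (median 0.0837) is the log2 fold change divided by the square root of F. The fit was also run on simulated counts in which few genes changed, unlike in these data, and no result here rests on that run. Members and lists were chosen with earlier results of these data known. Values of every library are given for called members with at least 1.5-fold change and 1 CPM, the most abundant per role, and Axin2, Rnf43, Znrf3, Ctnnb1, Lrp5 and Lrp6; Nkd1, Ryk, Ror1, Vangl1, Dvl1, Dvl3, Gsk3b, Apc and Tcf7l1 were added after their values were seen. From each other list up to 4 called genes of smallest p are named, with Wls and Porcn; Dhx38, Dcn, Col1a1 and Col1a2 were added likewise, and a gene that the rule would name is not reported here. Alternatives are given in the closing section.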

Additional observations from a re-analysis of the deposited data

How the results depend on the processing

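The alternatives were DESeq2 1.42.0 size factors, upper-quartile factors, no filter, a filter of 1 CPM in 3 libraries, unstranded counts, the DESeq2 test, centring on chromosome medians, a replicate block, and leaving out each library. Under these 14 alternatives all 33 called members kept their direction, and 31 stayed past the threshold; the exceptions were Ror1 and Vangl1, as given above. Axin1, not called, changed sign when centred on its chromosome (0.093) and without induced replicate 2 (0.0057), with a range of -0.072 to 0.0057 when 1 library was left out. The median log2 fold change of members (-0.04) lies near 0 and changed sign with no filter (0.011) and with chromosome centring (0.035), and ranged from -0.065 to 0.0057 when 1 library was left out. Counts of members were 17 to 18 higher and 14 to 15 lower under these alternatives. A test against a 1.5-fold change called 8 members higher and 4 lower, and 1160 and 1670 of all genes, since it asks for more. The difference in the Lef1 share of its family, induced minus KO, was -3.57 percentage points, -8.33 without division by length and -2.21 with unstranded counts; the cause was not tested.

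Replicate numbers are shared between groups. Deviations of same-numbered libraries from their group means correlated at r = -0.0026, 0.046 and 0.04. Not every library correlated best with its own number. With 3 libraries a group, these values cannot show whether same-numbered libraries share a batch. With the replicate block 18 members were higher and 15 lower, and 4789 and 4858 of all genes. Depth limits Rspo2, Rspo4 and Lgr6, whose induced or KO libraries hold few reads.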

Other observations

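Corepressors and cofactors that meet TCF factors in the nucleus went both ways. Of 13 tested genes, 5 were higher, 5 were lower and 3 were not called in the edgeR test. Tle3 went from 125 ± 3.59 to 238 ± 1.54 CPM (SD, n = 3) and Tle1 from 86.3 ± 4.54 to 45.4 ± 1.55 CPM (SD, n = 3); both encode Groucho-type corepressors that bind TCF factors. Their log2 fold changes were 0.93 (SE 0.044) and -0.93 (SE 0.056). Bcl9, whose product links β-catenin to Pygopus, was at -0.42 (SE 0.047), and Ctnnbip1, whose product keeps β-catenin from TCF, at 0.52 (SE 0.067).

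Of 5 genes listed as possible partners of the R-spondin and Frizzled module, 3 were higher, 1 was lower and 1 was not called. Sdc1, a heparan sulfate proteoglycan gene, went from 201 ± 2.95 to 404 ± 25.96 CPM (SD, n = 3), and Sdc4 and Gpc3 were at 0.32 (SE 0.056) and 0.46 (SE 0.094) on the log2 scale. Usp8, whose product returns Frizzled to the cell surface, was at -0.16 (SE 0.049), and Dhx38, which encodes a nuclear splicing helicase, did not pass at 0.07 (SE 0.047).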
